A study of Mus musculus with 10 samples.

Results

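A set of 10 genes of the unfolded protein response and the integrated stress response were followed in hippocampal bulk RNA-seq of female P301S mice. They were the rows of the count table whose Ensembl identifier maps to the symbol Hspa5, Ddit3, Atf3, Atf4, Xbp1, Trib3, Chac1, Herpud1, Sdf2l1 or Asns. The 10 symbols matched 11 of the 56884 identifiers, because Ddit3 has a second entry. All 10 mice were ovary-intact and carried human Tau with the P301S mutation under the mouse prion protein promoter. At 6 months of age, 5 females received a subcutaneous implant filled with dihydrotestosterone (DHT) over 10 mm, while 5 controls carried an empty one (void). Hippocampi were collected 12 weeks later, at 9 to 9.5 months, after perfusion with saline, and each mouse gave 1 library. The comparison asked which transcripts differ between DHT-treated and void-treated females. As a model it is limited by the promoter of the transgene, which is active mainly in neurons, and mice without the transgene were not analysed here.

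The endoplasmic reticulum (ER) folds secreted and membrane proteins, and 3 sensors in its membrane, IRE1, PERK and ATF6, report unfolded protein to the nucleus. IRE1 splices Xbp1 mRNA into the form that encodes the active factor, ATF6 is cut in the Golgi to release a transcription factor, and PERK phosphorylates the translation factor eIF2. PERK shares this substrate with the kinases GCN2, PKR and HRI, and phosphorylated eIF2 lowers general translation while raising translation of Atf4 mRNA, which is the integrated stress response. ATF4 then drives genes of amino acid supply and the factors CHOP (Ddit3) and ATF3. In tauopathy the eIF2 arm has long been studied as a link between misfolded protein and loss of synaptic protein synthesis. Gene counts see neither the splicing of Xbp1 nor the translation of Atf4, so the values here are transcript levels alone.

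Total counts per mouse ranged from 27188854 to 47113661 with void and from 33523527 to 45947784 with DHT. Values are given in CPM, the count scaled to a common library size by edgeR's TMM normalization, and 17622 genes had enough counts to be tested. The position numbers in the library names ran from 4 to 11 for void and from 18 to 23 for DHT, so library position and treatment cannot be told apart. Neuronal content was read from neuronal markers, whose summed level over 12 genes was 10892 to 12123 CPM with void and 9995 to 11874 CPM with DHT. This sum does not check which brain region was taken. No neuronal marker was at 0 in all mice. Summed microglial markers (12 genes) lay between 536 and 656 CPM with void and between 814 and 1318 CPM with DHT, and summed choroid plexus markers (12 genes) between 114 and 1860 CPM with void and between 2135 and 3054 CPM with DHT. In both sums the lowest mouse with DHT exceeded the highest with void. Choroid plexus is the secretory epithelium of the ventricle beside the hippocampus.

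Several member promoters carry short elements known as recognition sites of the pathway's factors, and 3 are printed because they show these elements in the gene that rose with DHT and in a pair that did not pass the test. Sequences are from RefSeq on GRCm38.p6, 300 bases each from 250 before to 50 after the start of the gene, written 5′ to 3′ on the strand of the gene with each matched element in capitals. All 10 members had an entry.
Hspa5 promoter: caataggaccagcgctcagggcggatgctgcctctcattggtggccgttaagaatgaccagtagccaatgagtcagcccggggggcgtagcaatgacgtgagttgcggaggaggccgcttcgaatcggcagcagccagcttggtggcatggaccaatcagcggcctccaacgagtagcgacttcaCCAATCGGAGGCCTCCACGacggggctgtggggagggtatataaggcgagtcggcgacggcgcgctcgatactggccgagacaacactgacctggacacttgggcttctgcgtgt
Atf3 promoter: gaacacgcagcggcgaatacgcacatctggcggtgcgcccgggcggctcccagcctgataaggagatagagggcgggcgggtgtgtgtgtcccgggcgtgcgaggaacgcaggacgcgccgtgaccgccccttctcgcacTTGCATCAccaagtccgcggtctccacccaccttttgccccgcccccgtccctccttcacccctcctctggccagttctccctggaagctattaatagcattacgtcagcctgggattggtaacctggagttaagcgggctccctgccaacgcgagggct
Herpud1 promoter: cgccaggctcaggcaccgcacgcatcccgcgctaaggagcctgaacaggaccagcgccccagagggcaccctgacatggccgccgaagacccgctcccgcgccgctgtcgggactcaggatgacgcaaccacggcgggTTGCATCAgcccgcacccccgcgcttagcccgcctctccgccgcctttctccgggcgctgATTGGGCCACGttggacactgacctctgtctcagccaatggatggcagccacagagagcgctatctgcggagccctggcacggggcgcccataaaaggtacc
The Hspa5 window is at chr2:34771840-34772139 on the plus strand, and its capitals mark an ER stress response element, CCAAT and CCACG separated by 9 bases, the arrangement bound by ATF6 together with NF-Y. The Atf3 window is at chr1:191183284-191183583 on the minus strand, and its capitals mark a CARE core, TGATG followed by any base and AA, read on the opposite strand. The CARE is the composite C/EBP-ATF element through which ATF4 acts. The Herpud1 window is at chr8:94386179-94386478 on the plus strand and holds a CARE core on the opposite strand and, downstream of it, an ER stress response element II, ATTGG and CCACG separated by 1 base.

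Both strands of each window were searched for these 3 elements, for the core TGACGTGG of the unfolded protein response element, and for the CCAAT box alone, which overlaps the first element and, on the opposite strand, the second. A CARE core was found in 5 of 10 member promoters, those of Atf3, Chac1, Trib3, Herpud1 and Asns, against 3.97% of the 32851 promoters in the table. The matched letters were TTGCATCA in Atf3, Chac1 and Herpud1, TTACATCA in Trib3 and TGATGAAA in Asns. The ER stress response element was found in 1 of 10, Hspa5, against 0.119% of all promoters, and the element II in 1 of 10, Herpud1, against 0.037%. The core TGACGTGG was in 0 of 10 windows and in 0.676% of all promoters. Ddit3, Atf4, Xbp1 and Sdf2l1 held none of these 4 elements. The CCAAT box was in 7 of 10 windows and in 37.4% of all promoters. These matches are letters in a window of fixed length and say nothing of occupancy.

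Of the 10 members with enough counts to be tested, Atf3 rose with DHT and the other 9 did not pass the test in either direction. Atf3 was 2.63-fold higher with DHT (95% interval 1.72 to 4.02). At an adjusted p under 0.05 with edgeR's quasi-likelihood test, 1 of 10 members was higher and 0 were lower, where 5.22% of all genes tested were higher and 0.261% were lower. With a log2 fold change over 1 as well, 1 of 10 was higher, against 2.17% of all genes. At an unadjusted p under 0.05 in edgeR, 1 of 10 was higher and 0 were lower. DESeq2 called 1 higher and 0 lower at an adjusted p under 0.05. At an unadjusted p under 0.05 in DESeq2, Xbp1 was lower as well, with a log2 fold change of -0.187. The median log2 fold change over the members was 0.042, where it was 0.0094 over all genes tested, and the median size of change without regard to sign was 0.096 against 0.11.

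**Figure D1:**
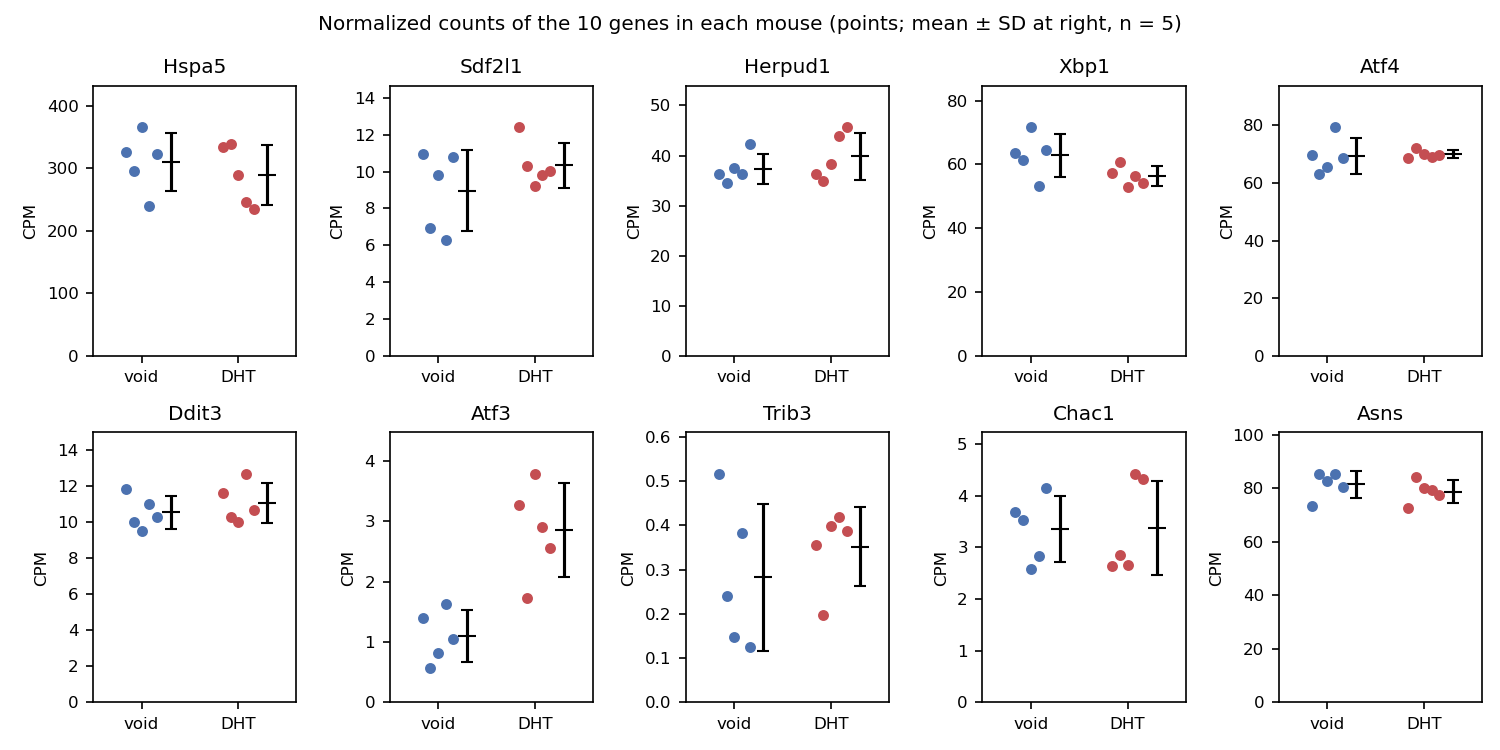
CPM of each of the 10 members in every mouse, with 1 panel per gene, a y axis in CPM that differs between panels, points for single void-treated and DHT-treated mice and bars for the mean ± SD of 5 mice. In the Atf3 panel alone the groups are separate, at 0.569 to 1.63 CPM with void and 1.73 to 3.79 CPM with DHT.

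Atf3 (ENSMUSG00000026628) encodes a stress-induced transcription factor of the ATF/CREB family, which is induced through ATF4 and also by inflammatory and injury signals. In void-treated females its level was 0.824 CPM in replicate 4, 1.63 in replicate 5, 1.05 in replicate 9, 1.40 in replicate 10 and 0.569 in replicate 11. In DHT-treated females it was 3.28 CPM in replicate 1, 1.73 in replicate 2, 3.79 in replicate 3, 2.90 in replicate 5 and 2.56 in replicate 6. Every DHT-treated mouse was above every void-treated mouse, and the closest were DHT replicate 2 and void replicate 5. The means were 1.10 ± 0.428 CPM with void and 2.85 ± 0.777 CPM with DHT (SD, n = 5 each). The log2 fold change was 1.39 (standard error, SE, 0.28; 95% interval 0.78 to 2.01; adjusted p = 0.0156, edgeR, adjusted by Benjamini-Hochberg over the 17622 genes). A two-sided exact permutation test of log2 CPM gave p = 0.00794, the smallest that 5 mice against 5 allow. The groups of 5.39% of all genes tested were likewise separate with DHT above, and those of 0.88% with DHT below.

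Atf3 was a low transcript, with 19 to 181 counts per mouse. It passed the threshold in 10 of 10 fits that each left out 1 mouse, with log2 fold changes of 1.20 to 1.58 and adjusted p values of 0.00846 to 0.0493. With the choroid plexus level of each mouse as a covariate, the log2 fold change was 1.45 and its call was lost (adjusted p = 0.663). Its SE was 0.52 with the covariate and 0.28 without. The choroid plexus sums were separate between the groups, so this fit can hardly tell that level and treatment apart. In that fit 0 of 17622 genes passed by edgeR, while 1140 had an unadjusted p under 0.05. Without the covariate edgeR called 966 of the 17622 genes, and 3059 had an unadjusted p under 0.05. DESeq2 without the covariate called 1445 of 20917 genes.

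Summed markers of microglia, choroid plexus and T cells were separate between the groups in the same direction as Atf3, and single markers of other cell types rose as well. With void the microglial sum was 536 CPM in replicate 4, 569 in replicate 5, 563 in replicate 9, 656 in replicate 10 and 541 in replicate 11. With DHT it was 1318 CPM in replicate 1, 814 in replicate 2, 969 in replicate 3, 999 in replicate 5 and 921 in replicate 6. DHT replicate 2 was thus the lowest of its group for Atf3 and for the microglial sum, and it was also the lowest for the choroid plexus sum (2135 CPM). The highest DHT-treated mouse for Atf3 was replicate 3, while that for the microglial and choroid plexus sums was replicate 1. In the void group, Atf3 was highest in replicate 5 (1.63 CPM), where the choroid plexus sum was lowest (114 CPM). That sum was highest in void replicate 9 (1860 CPM), where Atf3 was at 1.05 CPM. Atf3 was lowest in void replicate 11, while the microglial sum was lowest in void replicate 4 and highest in void replicate 10. For the T cell sum, DHT replicate 5 was lowest (2.75 CPM) and replicate 3 highest (4.08 CPM). Of 12 microglial markers, 10 were higher with DHT, and of 12 choroid plexus markers, 5 were. The T cell sum over 8 markers was 2.10 to 2.67 CPM with void and 2.75 to 4.08 CPM with DHT, though 0 of the 3 markers with enough counts to be tested passed in edgeR (1 with an unadjusted p under 0.05, 0 by DESeq2). Of 10 astrocyte markers, 1 rose, Gfap, the filament protein of reactive astrocytes (mean 431 CPM with void and 975 CPM with DHT, adjusted p = 0.00761), and 5 were higher at an unadjusted p under 0.05, while the astrocyte sums overlapped at 5958 to 8340 CPM with void and 6828 to 8631 CPM with DHT. Of 10 meningeal fibroblast markers, 1 rose, Igf2 (log2 fold change 1.68, adjusted p = 0.00931), and those sums overlapped too, at 173 to 250 CPM with void and 188 to 253 CPM with DHT. Over this list 6 log2 fold changes were positive and 4 negative, with a median of 0.08. Gfap and Igf2 were named after their values were seen. No marker in any of these lists was at 0 in all mice. The part of these cells in the result for Atf3 was not tested beyond the fit with the choroid plexus covariate. In bulk tissue, more cells of a type and more RNA per cell cannot be told apart.

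**Figure D2:**
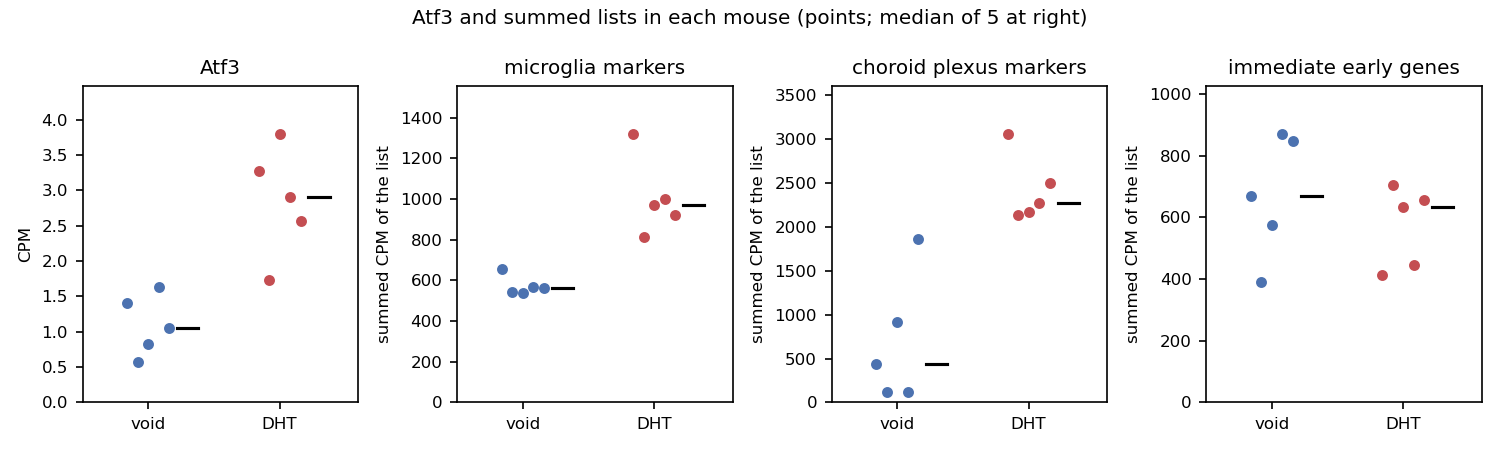
Atf3 in CPM beside the summed CPM of microglial markers, choroid plexus markers and immediate early genes in every mouse, with points for single void-treated and DHT-treated mice and a short line for the median of 5. The groups are separate in the Atf3, microglial and choroid plexus panels and overlap in that of the immediate early genes.

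Atf3 is also an immediate early gene in neurons, so the activity-regulated genes were read beside it. Of 12 immediate early genes, 0 passed the test in edgeR in either direction (0 higher and 1 lower at an unadjusted p under 0.05, 0 by DESeq2), and their median log2 fold change was -0.30. Their summed level was 391 to 870 CPM with void and 414 to 706 CPM with DHT, with overlapping groups. Fos, the classic member, was at 23.2 ± 14.8 CPM with void and 17.7 ± 10.4 CPM with DHT (SD, n = 5 each), which gave a log2 fold change of -0.38 (SE 0.51, adjusted p = 0.791).

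The chaperone arm did not pass the test. Hspa5 (ENSMUSG00000026864) encodes BiP, the ER Hsp70 chaperone that holds the sensors inactive until unfolded protein draws it away. It was at 366 CPM in void replicate 4, 240 in replicate 5, 323 in replicate 9, 327 in replicate 10 and 295 in replicate 11. With DHT it was at 335 CPM in replicate 1, 339 in replicate 2, 290 in replicate 3, 246 in replicate 5 and 235 in replicate 6. The groups overlapped over most of their range, and the highest and the second lowest values were both in void-treated mice. The means were 310 ± 46.7 CPM with void and 289 ± 48.4 CPM with DHT (SD, n = 5 each), which gave a log2 fold change of -0.10 (SE 0.13, adjusted p = 0.769). The 95% interval of the fold was 0.769 to 1.13.

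Sdf2l1 (ENSMUSG00000022769) encodes an ER protein that works with BiP and the ERdj3 co-chaperone and is a strong target of the unfolded protein response. It ranged from 6.26 to 10.96 CPM with void and from 9.20 to 12.4 CPM with DHT. The lowest 2 values were void replicates 5 and 11, and the other 3 void-treated mice lay within the DHT range. Its log2 fold change was 0.21 (SE 0.16, interval -0.14 to 0.56, adjusted p = 0.587). Herpud1 (ENSMUSG00000031770) encodes a membrane protein of the ER-associated degradation complex. It ranged from 34.5 to 42.4 CPM with void and from 34.8 to 45.7 CPM with DHT. The groups overlapped, with DHT replicates 5 and 6 above the highest void-treated mouse. Its log2 fold change was 0.091 (SE 0.087, interval -0.098 to 0.28, adjusted p = 0.681).

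Xbp1 had the lowest p after Atf3, with values that leaned downward. Xbp1 (ENSMUSG00000020484), the substrate of IRE1 and itself induced by ATF6, was at 71.7 CPM in void replicate 4, 53.1 in replicate 5, 64.6 in replicate 9, 63.5 in replicate 10 and 61.4 in replicate 11. With DHT it was at 57.3 CPM in replicate 1, 60.9 in replicate 2, 52.8 in replicate 3, 56.4 in replicate 5 and 54.2 in replicate 6. Of the void-treated mice, 4 were above all DHT-treated mice, and replicate 5 was near the lowest. The means were 62.9 ± 6.67 CPM with void and 56.3 ± 3.13 CPM with DHT (SD, n = 5 each). The log2 fold change of -0.16 (SE 0.076, interval -0.33 to 0.0064) did not pass (unadjusted p = 0.0581, adjusted p = 0.312, edgeR), nor did the exact permutation test (p = 0.0952).

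Atf4 and Ddit3 differed little between the groups. Atf4 (ENSMUSG00000042406), the central factor of the integrated stress response, averaged 69.2 ± 6.23 CPM with void and 69.9 ± 1.39 CPM with DHT (SD, n = 5 each). The DHT-treated mice lay between 68.8 and 72.2 CPM, inside the void range of 63.0 to 79.3 CPM. The log2 fold change was 0.015 (SE 0.063, adjusted p = 0.949), its fold interval was 0.919 to 1.11, and its sign turned in some alternative fits.

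Ddit3 (ENSMUSG00000025408) encodes CHOP, the C/EBP-family factor linked to death after lasting ER stress. It was at 9.53 CPM in void replicate 4, 11.02 in replicate 5, 10.3 in replicate 9, 11.8 in replicate 10 and 10.0 in replicate 11. With DHT it was at 11.6 CPM in replicate 1, 10.3 in replicate 2, 10.0 in replicate 3, 12.7 in replicate 5 and 10.7 in replicate 6. The highest mouse had DHT and the lowest had void, and the remainder were mixed. The log2 fold change was 0.069 (SE 0.093, interval -0.13 to 0.27, adjusted p = 0.792), and the interval of the fold was 0.912 to 1.21. The second Ddit3 entry (ENSMUSG00000116429), 105 exon bases that all lie within the first, had 0 counts in all mice, and how the counting treated reads shared by both is not given in the sources used here. In GENCODE M21, exons of the first entry also share 68 bases (4.0%) with Mars and 13 bases (0.8%) with Gm4189 on the opposite strand, and use of strand in the counting is not given either. No other member shared exon bases with another gene.

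**Figure D3:**
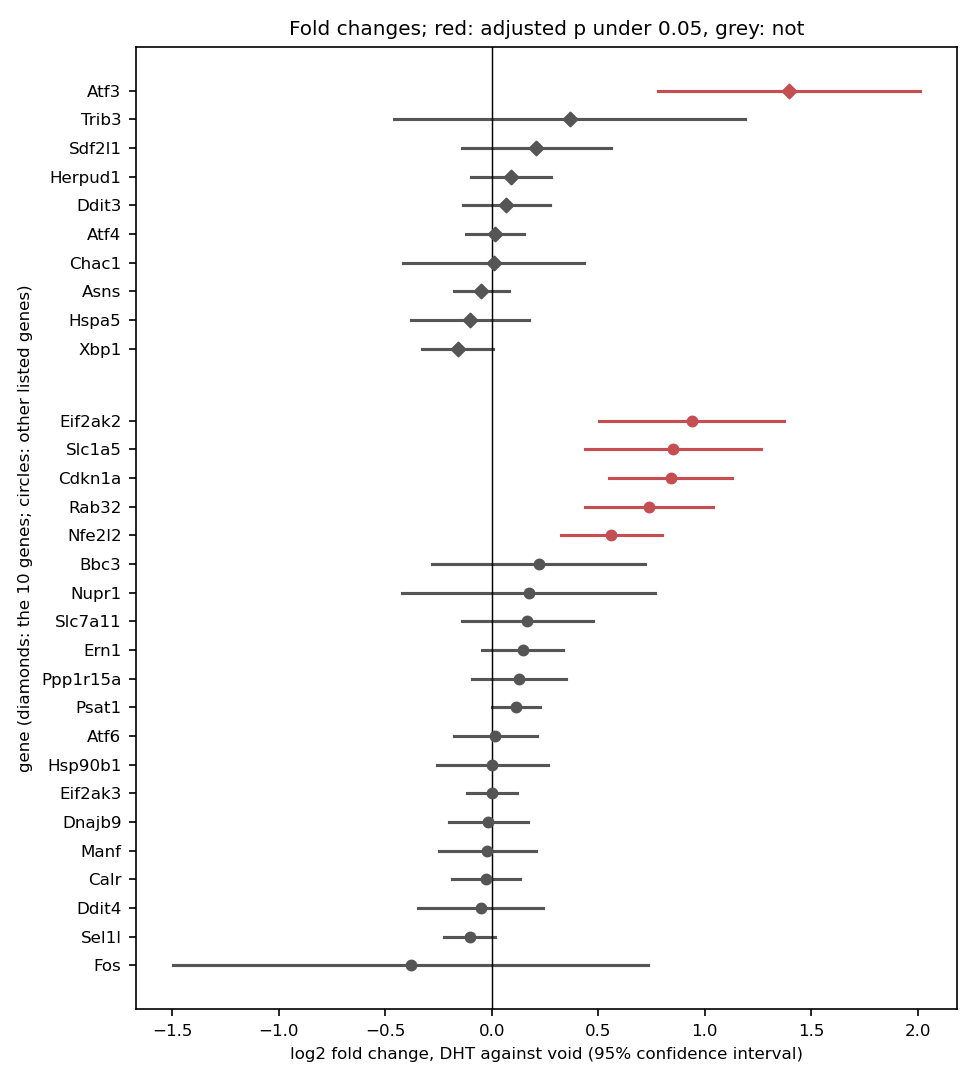
Log2 fold change, DHT minus void, of the 10 members (diamonds) and the other named genes (circles), with bars for the 95% interval from edgeR, red for an adjusted p under 0.05 and grey otherwise, and a vertical line at 0. Atf3 (interval 0.78 to 2.01) lies clear of 0, and the intervals of the other 9 members include 0.

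Chac1, Asns and Trib3, which lie downstream of ATF4, did not pass. Chac1 (ENSMUSG00000027313), a glutathione-degrading enzyme induced through ATF4, averaged 3.36 ± 0.642 CPM with void and 3.38 ± 0.908 CPM with DHT (SD, n = 5 each). The DHT group was uneven, with replicate 5 at 4.43 CPM and replicate 6 at 4.32 CPM above the other 3 at 2.65 to 2.86 CPM. The log2 fold change was 0.0090 (SE 0.20, interval -0.42 to 0.44, adjusted p = 0.991). Asns (ENSMUSG00000029752), asparagine synthetase, the standard amino acid response gene, averaged 81.4 ± 4.97 CPM with void and 78.7 ± 4.23 CPM with DHT (SD, n = 5 each). Its log2 fold change was -0.048 (SE 0.060, adjusted p = 0.763), with a fold interval of 0.884 to 1.06.

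Trib3 (ENSMUSG00000032715), a pseudokinase induced by ATF4 and CHOP that feeds back on both, had the fewest counts of the tested members. It had 4 to 19 counts per mouse, from 0.124 to 0.517 CPM with void and from 0.197 to 0.419 CPM with DHT. Its log2 fold change was 0.37 (SE 0.38, adjusted p = 0.708), with a fold interval of 0.729 to 2.28. On the log2 scale this interval, -0.46 to 1.19, was the widest of the members. With the choroid plexus covariate its log2 fold change was 1.31 (SE 0.65, adjusted p = 0.808).

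The order of the members was compared per kilobase of exon, since longer transcripts give more counts. Hspa5 was highest at a mean of 70.9 CPM per kilobase over the 10 mice, from 55.6 to 86.6. Atf4 (29.5) and Asns (29.3) followed, with ranges that overlapped, and then Xbp1 (18.3) and Herpud1 (16.6), which also overlapped. Sdf2l1 (8.71) and Ddit3 (6.30) overlapped each other, as did Chac1 (2.06) and Atf3 (0.916), and Trib3 was lowest at 0.149. Between these pairs the ranges over the 10 mice did not overlap. The DHT-treated mouse with the most Atf3 had 1.76 CPM per kilobase, below the mean of Chac1.

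The members did not vary as 1 block among the mice. For each of 45 pairs, Pearson's r of log2 CPM was computed over the 10 mice after subtraction of the group mean, so that the treatment itself adds nothing. The median r was -0.078, with 19 pairs positive and 26 negative, from -0.72 to 0.80. The highest was that of Hspa5 and Xbp1 (r = 0.80, exact permutation p = 0.00861; Spearman's rho = 0.88, exact permutation p = 0.00424). After adjustment over 45 pairs these gave p values of 0.367 and 0.191, and without the 2 mice farthest from the median Hspa5 level r was 0.65. Hspa5 and Sdf2l1 had an r of 0.67 (rho = 0.67, exact permutation p = 0.0244 and 0.0505), which was 0.52 without 2 mice, while Sdf2l1 and Asns had an r of -0.72 (rho = -0.70, exact permutation p = 0.0212 and 0.0347), which was -0.65 without 2 mice. Ddit3 and Trib3 had an r of 0.66 (rho = 0.55, exact permutation p = 0.0451 and 0.119), which was 0.49 without 2 mice. With 4 pairs under an exact p of 0.05 for r and 3 for rho, 0 passed after adjustment for either (lowest adjusted p for r = 0.367).

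**Figure D4:**
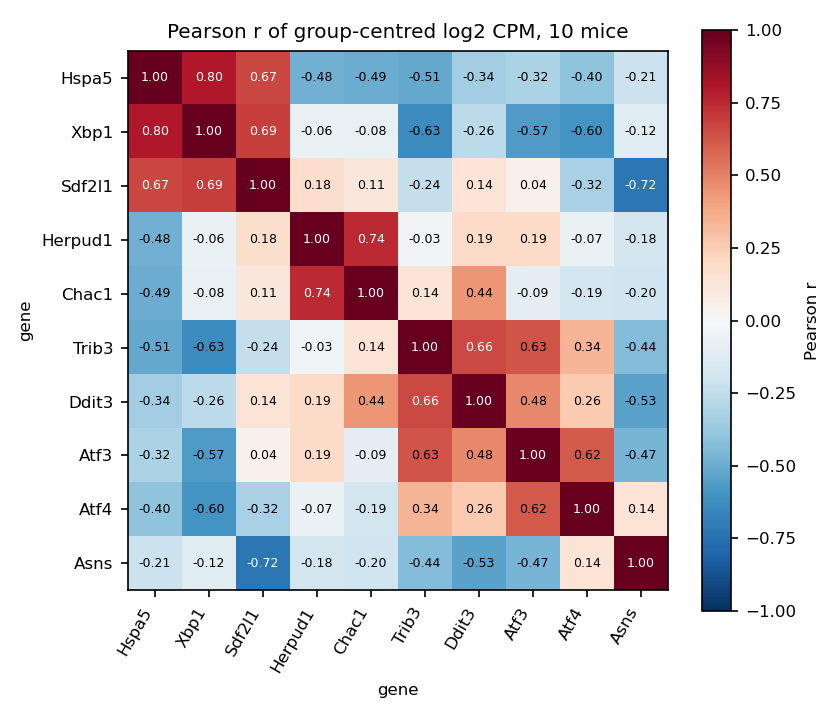
Pearson's r of group-centred log2 CPM for each pair of members over 10 mice, with genes on both axes and a colour scale from -1 (blue) to 1 (red). The order of the genes was set by hand and not by clustering. The pairs among Hspa5, Xbp1 and Sdf2l1 had r of 0.67 to 0.80, and no pair passed after adjustment.

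Across all genes tested, the 5 most like Hspa5 by the same group-centred r over 10 mice were Kif3b (0.97), Upf2 (0.97), Calr (0.96), Atp2c1 (0.96) and Dnajb11 (0.96). Calr, which encodes the ER lectin chaperone calreticulin, and Dnajb11, which encodes the BiP co-chaperone ERdj3, are both on the chaperone list used below for the wider pathway. The 5 most like Ddit3 were Vhl (0.96), 1110038F14Rik (0.93), Ptafr (0.92), Gdf9 (0.91) and Prpf31 (0.91). All of these values share the same 10 libraries and were picked as the highest among 17622.

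In the wider pathway, 5 genes rose with DHT and 0 fell among 144 distinct genes tested of 147 on 8 lists. The 5 were Nfe2l2, Eif2ak2, Slc1a5, Cdkn1a and Rab32, or 3.47% of the genes tested, where 5.22% of all genes were higher. None of the 5 reached a log2 fold change of 1, and none of the 5 had groups that overlapped, DHT being above. At an unadjusted p under 0.05, 22 were higher and 1 was lower, beside 2316 higher and 743 lower of all 17622 genes. DESeq2 called 8 of the pathway genes higher and 0 lower. The 3 further genes of DESeq2 were Creb3l1, P4hb and Sil1, named here after their values were seen. The median log2 fold change was 0.038 and the median size of change 0.059, against 0.0094 and 0.11 over all genes. The groups of 9 of the 144 genes were separate with DHT above and of 0 with DHT below, beside 5.39% and 0.88% of all genes tested. With the choroid plexus covariate 0 of the 144 passed in edgeR, and the log2 fold changes of the 5 were all still positive, at 0.94 for Eif2ak2, 0.73 for Rab32, 0.71 for Cdkn1a, 0.54 for Nfe2l2 and 0.47 for Slc1a5. Leaving out 1 mouse gave counts of 1 to 6 higher genes, and without void replicate 11 Cdkn1a alone passed, while without DHT replicate 1 Cdkn1a, Nfe2l2 and Rab32 did.

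Among 15 tested sensors and transducers, 1 rose and 0 fell in edgeR, or 6.67% higher, where 5.22% of all genes tested were higher. At an unadjusted p under 0.05, 3 were higher and 0 lower, and DESeq2 called 2 higher and 0 lower. The median log2 fold change was 0.039. The gene called in edgeR was Nfe2l2, encoding NRF2, the antioxidant factor that PERK can phosphorylate and that is also activated apart from ER stress. It went from 20.2 ± 0.748 CPM with void to 29.8 ± 5.48 CPM with DHT (SD, n = 5 each), with a log2 fold change of 0.56 (SE 0.11, adjusted p = 0.0133). The 3 sensors themselves did not pass. Ern1, which encodes IRE1, had a log2 fold change of 0.14 (adjusted p = 0.467), Eif2ak3, which encodes PERK, 0.0015 (adjusted p = 0.996) and Atf6 0.017 (adjusted p = 0.959).

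Among the eIF2 kinases, phosphatases and exchange factors, 1 of 17 rose and 0 fell (3 and 1 at an unadjusted p under 0.05, and 1 and 0 by DESeq2). Eif2ak2 encodes PKR, the kinase of the set that responds to double-stranded RNA and is itself an interferon-induced gene. It was at 11.6, 13.7, 10.1, 11.3 and 9.65 CPM in void replicates 4, 5, 9, 10 and 11, and at 27.8, 16.1, 31.0, 16.1 and 16.8 CPM in DHT replicates 1, 2, 3, 5 and 6. DHT replicates 1 and 3 stood well above the other 3. The log2 fold change of Eif2ak2 was 0.94 (SE 0.20, adjusted p = 0.0193), and its call was lost without void replicate 11 and without DHT replicate 1. Ppp1r15a, which encodes the stress-induced eIF2 phosphatase subunit GADD34, had a log2 fold change of 0.13 (adjusted p = 0.600).

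Of 27 ER chaperones and folding enzymes, 0 passed in edgeR (3 higher and 0 lower at an unadjusted p under 0.05, and 2 higher by DESeq2), and the median log2 fold change was 0.013. Hsp90b1, the ER Hsp90, was at 376 ± 22.6 CPM with void and 376 ± 74.5 CPM with DHT (SD, n = 5 each, adjusted p = 0.997). Calr (log2 fold change -0.027, adjusted p = 0.912), the secreted factor Manf (-0.021, adjusted p = 0.958) and the co-chaperone Dnajb9 (-0.017, adjusted p = 0.957) did not pass either. Of 29 genes of ER-associated degradation and translocation, 0 passed in edgeR (3 higher and 0 lower at an unadjusted p under 0.05, and 0 by DESeq2). Sel1l, the adaptor of the HRD1 ubiquitin ligase, had a log2 fold change of -0.10 (adjusted p = 0.363 in edgeR, exact permutation p = 0.0476).

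**Figure D5:**
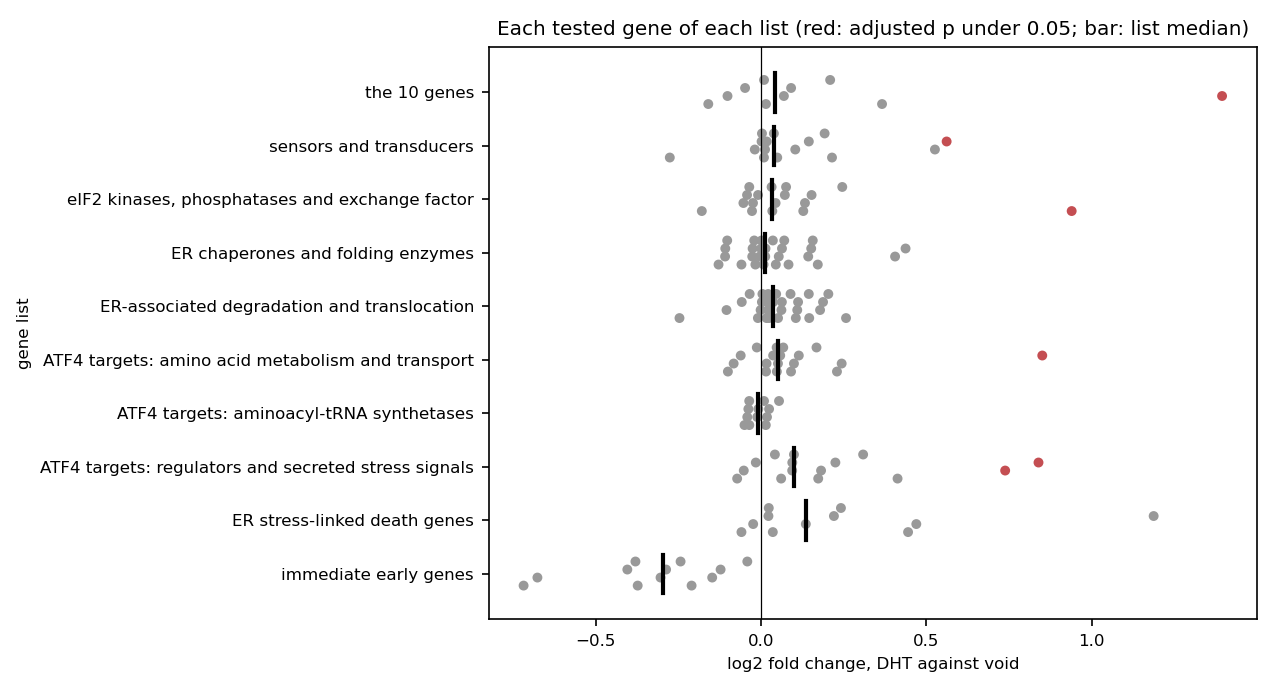
Log2 fold changes, DHT minus void, of the tested genes among the 10 members, on the 8 pathway lists and among the immediate early genes, with a point per gene, red where the adjusted p was under 0.05, and a bar at the list's median. The 5 red genes of the 8 pathway lists are spread over 4 lists, the medians of all 8 lie between -0.0099 and 0.14, and all immediate early genes lie below 0.

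Among 19 ATF4 targets of amino acid metabolism and transport, 1 rose and 0 fell (4 higher and 0 lower at an unadjusted p under 0.05, and 1 and 0 by DESeq2). Slc1a5, a neutral amino acid transporter, went from 1.69 ± 0.367 CPM with void to 3.05 ± 0.627 CPM with DHT (SD, n = 5 each), with a log2 fold change of 0.85 (SE 0.19, adjusted p = 0.0235), a call lost without any 1 of void replicates 4, 5 and 11 or of DHT replicates 1, 3 and 5. Psat1, an enzyme of serine synthesis, was at 99.7 to 111.9 CPM with void and 112.0 to 121.8 CPM with DHT. These groups were separate by a narrow gap (exact permutation p = 0.00794), but its log2 fold change of 0.11 did not pass in edgeR (adjusted p = 0.283). Slc7a11, the cystine transporter, had a log2 fold change of 0.17 (adjusted p = 0.627). Of 12 aminoacyl-tRNA synthetases, 0 passed in edgeR (0 at an unadjusted p under 0.05 and 0 by DESeq2), and all lay between -0.050 and 0.054 on the log2 scale.

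Of 15 tested ATF4-linked regulators and secreted stress signals, 2 rose and 0 fell (2 and 0 at an unadjusted p under 0.05 and by DESeq2), with a median log2 fold change of 0.099. Cdkn1a, which encodes the cell cycle inhibitor p21 and is best known as a p53 target, went from 7.14 ± 0.796 to 12.8 ± 2.38 CPM (SD, n = 5 each), with a log2 fold change of 0.84 (SE 0.13, adjusted p = 0.00761). Rab32, a small GTPase of lysosome-related organelles, went from 2.24 ± 0.388 to 3.75 ± 0.306 CPM (SD, n = 5 each), with a log2 fold change of 0.74 (SE 0.14, adjusted p = 0.0119). Ddit4 (log2 fold change -0.052, adjusted p = 0.905), an mTOR inhibitor, and Nupr1 (0.17, adjusted p = 0.829), a stress-induced chromatin protein, did not pass. Of 11 death genes linked to ER stress, 0 passed in edgeR and 0 by DESeq2. At an unadjusted p under 0.05 in edgeR 4 were higher and 0 lower, beside 2316 higher of all 17622 genes. These 4, named after their values were seen, were Casp4 (log2 fold change 1.19, adjusted p = 0.106), Tnfrsf10b (0.47), Pmaip1 (0.44) and Bak1 (0.24). Casp4 was low, at a mean of 0.443 CPM with void and 0.981 CPM with DHT. The BH3-only gene Bbc3, not among these 4, had a log2 fold change of 0.22 (adjusted p = 0.713). The microglial and choroid plexus sums given above rose with the same grouping as the 5 pathway genes called in edgeR. The part of these cells in those 5 results was not tested beyond the fit with the choroid plexus covariate.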

How the data were processed

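Hippocampal RNA from 10 mice (500 ng each) was made into mRNA libraries. The authors trimmed reads with HTStream, aligned them with STAR 2.7.10b and deposited the raw count of each gene in each library. The study's methods name mm10 and the submitters' processing notes mm39, and the counter and annotation release are not given in the sources used here. Of 56884 identifiers, 91.3% (99.6% of counts) had a symbol in GENCODE M21. Most carried a later version number than in M21, which therefore served only for names, exon lengths and overlaps.

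Groups came from the sample labels, and p-values measure the spread between mice. Counts were compared in R 4.3.3 with edgeR 4.0.16 (TMM, expression filter by group, quasi-likelihood test, Benjamini-Hochberg adjustment). A call is an adjusted p under 0.05. Standard errors (SE) were taken as |log2 fold change| over the root of F. Log2 CPM used a prior count of 2. Exact permutation tests were two-sided over 252 splits of the mice, or over 14400 within-group orders for pairs of genes. DESeq2 1.42.0, other size factors and filters, a choroid plexus covariate and leaving out each mouse were alternatives. Intervals cover sampling between mice. The scripts were tested on simulated data. The changed genes, 200 with a log2 fold change of 1 in size, were drawn from genes with a mean over 1 CPM, which leaves out Trib3. Smaller changes were not simulated. In that setting edgeR recovered 87.5% at an adjusted p under 0.05. Of its calls there, 8.38% were false.

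The members and lists were chosen with earlier results of these data known. Named were all members, every called gene of a pathway list up to the 5 lowest p, and 15 fixed pathway genes. Summed markers of other cell types overlapped between groups for astrocytes (1 of 10 higher), oligodendrocytes (0 of 10), endothelium (0 of 10), meningeal fibroblasts (1 of 10), B and plasma cells (0 of 4 tested) and blood (0 of 1 tested), and 0 of 12 neuronal markers passed in edgeR. At an unadjusted p under 0.05, 5 astrocyte, 4 oligodendrocyte, 3 B cell and 1 meningeal marker were higher and 1 neuronal marker was lower. By DESeq2, 2 astrocyte, 1 meningeal and 1 B cell marker were higher. Mitochondrial counts were 1.53% to 2.39% with void and 1.61% to 2.14% with DHT.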

Additional observations from a re-analysis of the deposited data

Results flagged for a closer look

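Trib3 was flagged because DHT replicate 2, at 0.197 CPM, stood apart below the other 4 DHT-treated mice, with a gap to the nearest of 0.712 of the group's range. Atf6 was flagged because void replicate 5, at 119 CPM, stood apart below the other void-treated mice, with a gap of 0.784 of the range. The limit for 5 mice is 0.71. These were 2 of 60 groups examined over 30 genes, where chance gives about 3.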

How the results depend on the processing

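The void and DHT groups were different mice, and the labels give no pairs or litters, so no paired analysis was run. The study's methods say that littermates were randomized to treatment and that mice of a treatment were kept together. Litter was therefore not modelled, and cage and treatment cannot be told apart. With the choroid plexus covariate, 0 members and 0 of the other pathway genes were called higher, while Atf3 was at 1.45 and the 5 pathway genes called without it were still positive. In that fit the log2 fold change was -0.053 for Herpud1, -0.32 for Sdf2l1, -0.060 for Chac1 and 0.023 for Asns, all of the opposite sign, and 1.31 for Trib3, -0.39 for Hspa5 and -0.33 for Xbp1, of the same sign and larger. The covariate differs between the groups, and the cause was not tested. The count of higher pathway genes, 5, was 8 with DESeq2 and 22 at an unadjusted p under 0.05, where 1 was lower. Leaving out 1 mouse gave 1 to 6 higher and 0 lower pathway genes, with 1 without void replicate 11 and 3 without DHT replicate 1, and 1 higher and 0 lower members in every fit. Atf4 turned to -0.012 with DESeq2 and -0.012 with its size factors, and ranged from -0.045 to 0.068 with 1 mouse left out. Chac1 turned to -0.019 with DESeq2, -0.020 with its size factors and -0.0057 with all genes of at least 1 count, and ranged from -0.14 to 0.098 with 1 mouse left out. Ddit3 ranged from -0.022 to 0.11, and the median r between members from -0.11 to 0.056. Atf3 kept its direction under every alternative run. Trib3 had the fewest counts, 4 in its lowest library.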
